A study of Homo sapiens with 33 samples.

Results

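The dual specificity phosphatases DUSP1, DUSP2, DUSP3, DUSP4, DUSP5, DUSP6, DUSP7, DUSP10 and DUSP14 were followed through 2 ways of taking away the activity of anaplastic lymphoma kinase (ALK) in lymphoma cell lines, an inducible hairpin against ALK and small ALK inhibitors. Every probe set whose platform annotation gives one of these symbols, and no other, was taken. That gave 17 probe sets for 9 genes, of 22283 probe sets and 11963 named genes on the array. DUSP3 and DUSP6 have 3 probe sets each, DUSP1, DUSP4, DUSP7 and DUSP10 have 2 each, and DUSP2, DUSP5 and DUSP14 have 1 each. Probe sets of 1 gene read the same RNA and are not replicates of each other.

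The study measured RNA on Affymetrix HG-U133A arrays from ALK-positive anaplastic large cell lymphoma (ALCL) lines, in which a fusion gene keeps the ALK kinase active. There are 33 arrays in 11 groups of 3. TS, a subclone of the Sup-M2 line, and Su-DHL1 carry a lentiviral tTRKRAB repressor marked by DsRed and a lentiviral hairpin vector marked by GFP. They were sorted as double-positive populations, not single clones, cells that showed GFP without inducer were sorted out, and cells on and off doxycycline share the vectors. The 3 sets of hairpin arrays compare doxycycline at 1 microg/ml with no doxycycline: TS with the ALK hairpin A5 for 84 h, TS with A5 for 72 h, and Su-DHL1 with A5 for 72 h. A group of TS cells with the mutated hairpin A5M, on doxycycline for 84 h, is the control for the hairpin itself, with no uninduced A5M group. TS cells were also given the pyrrolocarbazole-derived compounds A2 or A3 at 300 nM for 6 h, the compound A1 at 300 nM for 6 h, or neither (U). A1 is a mock compound in the series' design text but an ALK inhibitor in its sample descriptions. U is untreated in its sample descriptions, while the design text has a diluent control, so both are given by their letters. The labels do not say that the 3 arrays of a group came from separate cultures. The p-values therefore measure the spread between these arrays, which may be technical, and 3 arrays per group limit the precision of every value. Where the 3 values of a group are listed, they run from the lowest to the highest array.

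Mitogen-activated protein (MAP) kinases are switched on by phosphate on a threonine and a tyrosine of the same loop, and dual specificity phosphatases switch them off by removing both. Several of these phosphatases are themselves transcribed in response to the kinase they inactivate, which makes their RNA a common readout of ERK pathway activity as well as a brake on it. In ALK-positive lymphoma the ALK fusion protein feeds the RAS-ERK cascade among other pathways. DUSP1, DUSP2, DUSP4 and DUSP5 are the inducible nuclear members, DUSP6 and DUSP7 are cytoplasmic and prefer ERK, DUSP10 prefers the stress kinases JNK and p38, and DUSP3 and DUSP14 are small atypical members without the kinase-binding domain.

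The trimmed means of the arrays lay between 200.06 and 200.08 signal units, the scale the values were deposited on, and the lowest correlation between arrays of 1 group was 0.969. ALK, the targeted gene, was lower on every induced A5 array than on any uninduced array of its set. By probe set 208212_s_at the A5 arrays averaged 248.0 ± 44.3 against 2039 ± 97.2 without doxycycline in TS at 84 h, 330.2 ± 52.4 against 1823 ± 19.1 in TS at 72 h, and 637.2 ± 12.3 against 2966 ± 219 in Su-DHL1 (SD, n = 3 each), and A5M arrays averaged 1686 ± 46.5. A2 and A3 act on the kinase, and ALK RNA was not a check of them. The ALCL markers ALK, TNFRSF8 (CD30), IL2RA, GZMB and PRF1 were at or above the 40th percentile of their own array on 33 of 33 arrays. Of the T cell markers, CD7 was so on 0, CD2 on 18, CD4 on 25 (by 1 of its probe sets, 0 by the other), CD3E on 31 and CD5 on 32 arrays. Of the markers of other cell types, CD14, LYZ and EPCAM were so on 0 arrays and CSF1R (myeloid) on 33. The keratins KRT8 and KRT18 were so on 26 and 25 arrays, CD79A and MS4A1 (B cell) on 11 and 9, and the stromal COL1A1 on between 0 and 33 and COL1A2 on 0 or 13, by probe set.

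RefSeq promoter windows of 300 bases, from 250 before to 50 after the start site (build GRCh38.p14), were found for 7 of the 9 genes, and those of DUSP4 and DUSP5 were not used here. The 3 windows below are shown because DUSP6 and DUSP2 had the largest decreases under the inhibitors and DUSP1 moved the other way. They lie at chr12:89352452-89352751, chr2:96145391-96145690 and chr5:172771146-172771445, all on the minus strand, and are written 5′ to 3′ with motif matches in capitals.
DUSP6: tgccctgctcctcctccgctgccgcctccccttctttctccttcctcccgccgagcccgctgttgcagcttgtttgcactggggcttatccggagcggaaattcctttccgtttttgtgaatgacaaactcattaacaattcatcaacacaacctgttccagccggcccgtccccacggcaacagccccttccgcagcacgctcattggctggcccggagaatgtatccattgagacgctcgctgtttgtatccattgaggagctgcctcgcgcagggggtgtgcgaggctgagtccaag
DUSP2: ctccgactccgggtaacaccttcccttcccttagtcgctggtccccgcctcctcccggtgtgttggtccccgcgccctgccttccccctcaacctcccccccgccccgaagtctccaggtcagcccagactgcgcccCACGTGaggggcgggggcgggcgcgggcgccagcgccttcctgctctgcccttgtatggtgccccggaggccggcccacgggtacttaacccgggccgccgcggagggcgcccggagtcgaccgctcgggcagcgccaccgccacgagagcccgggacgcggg
DUSP1: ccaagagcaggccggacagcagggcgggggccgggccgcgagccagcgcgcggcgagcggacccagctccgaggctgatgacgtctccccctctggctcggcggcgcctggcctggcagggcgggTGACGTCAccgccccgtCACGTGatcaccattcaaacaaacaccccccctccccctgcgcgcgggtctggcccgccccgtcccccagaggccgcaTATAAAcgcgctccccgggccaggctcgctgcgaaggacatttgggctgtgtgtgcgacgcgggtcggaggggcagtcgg

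The 7 motifs in view were searched on both strands: the cAMP response element TGACGTCA, the AP-1 site TGANTCA, the E-box CACGTG, the STAT site TTCNNNGAA, the ETS site CCGGAAG, the CArG box that serum response factor binds, and the TATA element TATAAA. The capitals mark, in DUSP1, a cAMP response element from position -125 to -118, an E-box from -108 to -103 and a TATA element from -30 to -25, and, in DUSP2, an E-box from -113 to -108. No 2 of these matches overlap. Of 35116 promoter windows in the table, 1.85% hold the cAMP response element, 7.26% the E-box and 11.5% the TATA element. None of the 7 motifs was found in the DUSP6 window, nor in those of DUSP7, DUSP10 (2 windows) and DUSP14, and the DUSP3 window holds a STAT site from -242 to -234, as 7.66% of windows do. The DUSP6 window has a GC content of 58.3%, against 75.0% for DUSP2, 73.3% for DUSP1 and a median of 58.7% over all windows. A match describes these letters only and is not a binding site.

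Silencing ALK raised more DUSP probe sets than it lowered in TS cells. At 84 h, 9 of the 15 DUSP probe sets tested were higher with A5 than without doxycycline and 1 was lower (limma, Benjamini-Hochberg adjusted over all 15345 probe sets tested, called below 0.05), where 37.6% of all probe sets tested were called, 20.6% higher and 17% lower. These were probe sets of DUSP3, DUSP4, DUSP5, DUSP6 and DUSP10, all higher, and of DUSP2, which was lower. Against A5M at 84 h, 8 of 15 were higher and 1 lower, where 39.6% of all probe sets were called, 21.9% higher and 17.6% lower, and they belong to those 6 genes again. At 72 h in TS, 8 of 15 were higher and 1 lower, where 30.9% of all probe sets were called, 17.4% higher and 13.5% lower. The median log2 fold change over the tested DUSP probe sets was 0.47 at 84 h and 0.63 at 72 h, where that over all probe sets tested was 0.06 and 0.07. Both probe sets of DUSP4 and 208893_s_at of DUSP6 lay below the 40th percentile of their array on all control arrays of TS. Without these 3, 7 of 12 were higher and 1 lower at 84 h, 6 and 1 against A5M, and 5 and 1 at 72 h, with a median of 0.44 at 84 h and at 72 h. The 3 comparisons are not independent in full, since both 84 h comparisons share the A5 arrays.

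In A5M cells on doxycycline, 1 of these genes passed the threshold against uninduced A5 cells. The 2 groups differ in the hairpin vector and in doxycycline, so that the change cannot be tied to either. With A5M against uninduced A5 cells, 1 of 15 DUSP probe sets was higher and 0 were lower, where 5.5% of all probe sets were called, 2.46% higher and 3.04% lower. That probe set was DUSP14, with a log2 fold change of 0.41 ± 0.10 (SE, adjusted p = 0.0158). The call was lost without the third uninduced array (0.32, adjusted p = 0.0805) or the second A5M array (0.36, adjusted p = 0.0728).

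Su-DHL1 answered the hairpin differently for a part of the family. With A5 at 72 h, 3 of 15 probe sets were higher and 4 lower, where 21.6% of all probe sets were called, 12.5% higher and 9.19% lower. DUSP3, DUSP5 and DUSP10 were higher and DUSP2 lower, as in TS, though DUSP10 was called by 215501_s_at here and by 221563_at in TS. Both DUSP4 probe sets and 1 of 3 for DUSP6 were lower, which in TS were higher or, for 1 of DUSP4 at 84 h, not called. Tested directly, the hairpin response in Su-DHL1 minus that in TS at 72 h was called for 5 of 15 probe sets, all 5 lower, where 2.72% of all probe sets were called, 1.52% higher and 1.21% lower. They are the 2 probe sets of DUSP4 and the 3 of DUSP6. Both of DUSP4 and 208893_s_at of DUSP6 lay below the 40th percentile of their array on all uninduced TS arrays. The count therefore rests in part on signals at the bottom of the arrays. Of those called, only 208891_at and 208892_s_at, both of DUSP6, lay above that percentile on all arrays that enter the difference. Between 84 h and 72 h in TS, the response differed for 0 of 15 probe sets by limma, where 0.789% of all probe sets were called, and 1 DUSP probe set, 208893_s_at of DUSP6, had an unadjusted p under 0.05.

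With 6 h of either inhibitor, DUSP1 and DUSP10 were higher and DUSP2, DUSP5, DUSP6 and DUSP7 lower than with A1. With A2 against A1, 3 of 14 DUSP probe sets tested were higher and 6 lower, where 31.6% of the 14578 probe sets tested were called, 18.3% higher and 13.3% lower. With A3 against A1, 3 of 14 were higher and 7 lower, where 31.2% of all probe sets were called, 17.8% higher and 13.4% lower. A2 and A3 were both set against the same 3 A1 arrays. DUSP2, the 3 probe sets of DUSP6 and 214793_at of DUSP7 passed the filter on low values in this fit only with their A1 and U arrays, so that the counts do not show that more of the family fell than rose. Among the probe sets with at least 1 array at or above the 40th percentile in each group compared, 3 of 10 were higher and 2 lower with A2, and 3 of 9 were higher and 2 lower with A3. The values of the probe sets at the bottom of the arrays are given below as levels first.

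**Figure D1:**
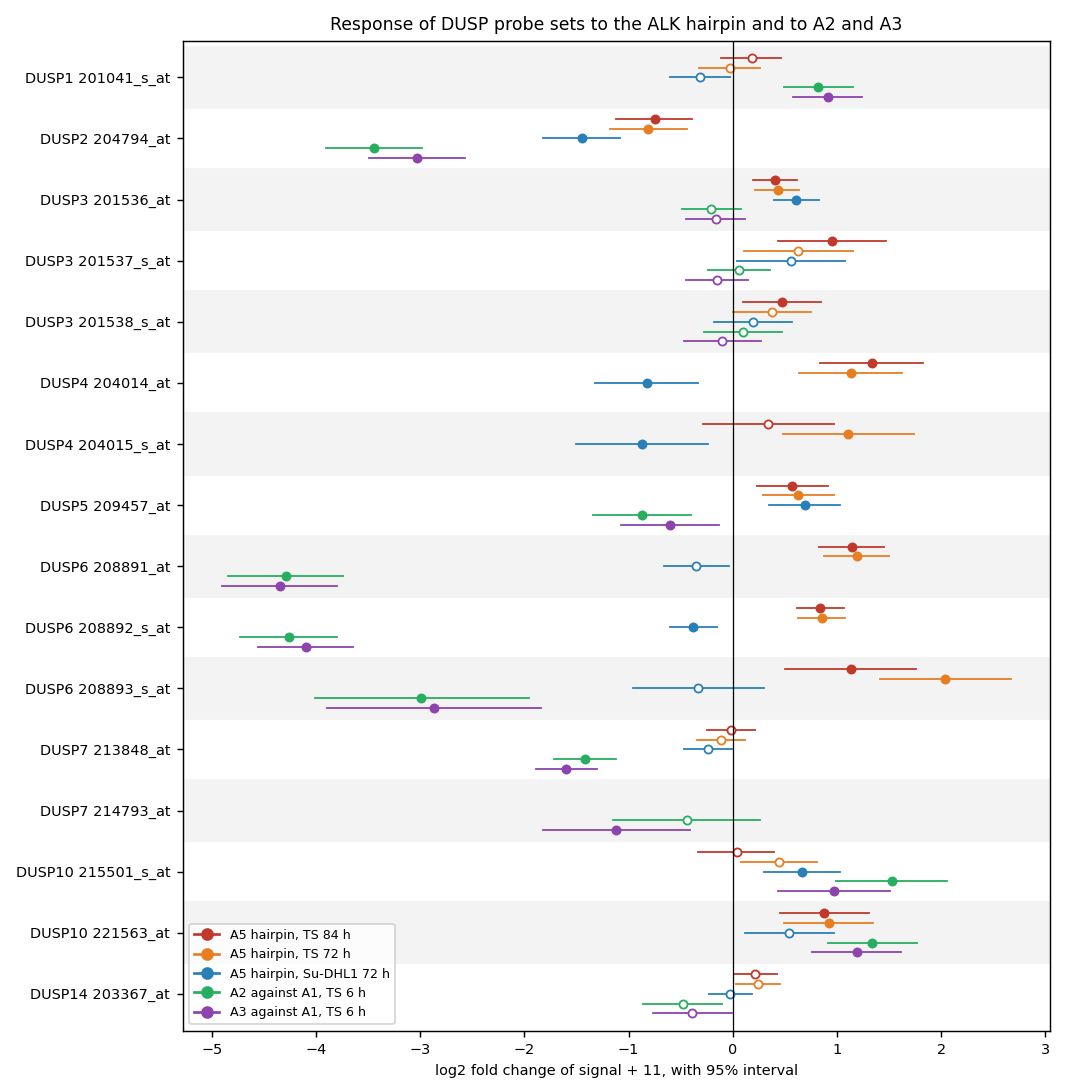
Log2 fold change of signal + 11 (x axis, with its 95% interval) for 16 DUSP probe sets (rows) in 5 comparisons, with filled points for those called and open points for those not called. The 3 DUSP6 rows lie right of 0 for the hairpin in TS, left of 0 for the hairpin in Su-DHL1 and furthest left for A2 and A3.

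DUSP6, the cytoplasmic phosphatase that binds and inactivates ERK, had the widest range of the family. In TS at 84 h the probe set 208891_at read 542.6, 598.3 and 721.7 signal units with A5, against 255.5, 307.6 and 353.3 with A5M and 221.3, 250.4 and 365.9 without doxycycline. At 72 h it read 587.1, 612.9 and 687.9 with A5 against 253.4, 266.3 and 287.0 without. Every A5 array was above every control array of its set, and A5M and uninduced arrays overlapped. The log2 fold change of signal + 11 was 1.14 ± 0.15 at 84 h (adjusted p = 1.43e-06), 1.00 ± 0.15 against A5M (adjusted p = 8.26e-06) and 1.19 ± 0.15 at 72 h (adjusted p = 1.21e-06). Probe set 208892_s_at gave 0.84 ± 0.11, 0.79 ± 0.11 and 0.86 ± 0.11 in the same order, all called. The dim 208893_s_at read 21.9, 49.7 and 52.7 with A5 against 8.3, 11.9 and 23.7 with A5M and 9.4, 10.7 and 16.4 without doxycycline at 84 h, and 37.7, 72.3 and 96.7 against 5.1, 8.4 and 9.2 at 72 h. All of its control arrays in TS, and 1 of 3 A5 arrays in each set, lay below the 40th percentile of their array. It was at least 1.01-fold higher than with A5M and at least 1.82-fold higher at 72 h, and against the uninduced arrays at 84 h no bound could be given. Its fitted values were called by limma in all 3 comparisons, and the call against A5M was lost without the third A5 array (adjusted p = 0.0571) or the third A5M array (adjusted p = 0.054). In whole cell populations, more cells with DUSP6 RNA and more DUSP6 RNA per cell cannot be told apart, and the same holds for every gene below.

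In Su-DHL1, DUSP6 started high and did not go up. Probe set 208891_at read 877.3, 903.0 and 1032.0 with A5 against 1060.0, 1198.1 and 1348.2 without doxycycline, and 208892_s_at read 531.7, 537.8 and 614.9 against 678.3, 686.5 and 836.0. The induced arrays lay below all uninduced arrays by both probe sets. The log2 fold change was -0.35 ± 0.15 (adjusted p = 0.101) by the first and -0.38 ± 0.11 (adjusted p = 0.014) by the second. The call of the second was lost without the first induced array (-0.35, adjusted p = 0.0553), the second induced array (-0.34, adjusted p = 0.0604) or the second uninduced array (-0.28, adjusted p = 0.107), and in a fit of all 33 arrays (adjusted p = 0.0879). The difference from the TS response held: -1.54 ± 0.21 (adjusted p = 1.06e-04), -1.23 ± 0.15 (adjusted p = 3.35e-05) and -2.37 ± 0.43 (adjusted p = 0.00224) for the 3 probe sets. All 3 were called without any single array that enters the difference.

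Under the inhibitors DUSP6 signal lay at the bottom of the arrays. Probe set 208891_at read 1.8, 12.2 and 17.4 with A2 and 4.9, 8.3 and 13.4 with A3, against 329.3, 354.9 and 498.9 with A1 and 290.1, 310.9 and 369.2 in U. All A2 and A3 arrays lay below the 40th percentile of their own array, which averages 36.6 for A2 and 36.5 for A3, and all A1 and U arrays far above it. Taking that percentile as the level of A2 or A3, DUSP6 was at least 10.6-fold lower with A2 and at least 10.6-fold lower with A3 than with A1. The fitted log2 fold changes, which depend on the added 11 units for values this low, were -4.29 ± 0.26 with A2 (adjusted p = 3.68e-09) and -4.35 ± 0.26 with A3 (adjusted p = 2.85e-09). By 208892_s_at the bounds were at least 9.29-fold lower with A2 and at least 9.3-fold lower with A3.

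DUSP7, the other cytoplasmic ERK phosphatase here, was lower with both inhibitors and was not called under the hairpin. Probe set 213848_at read 101.1, 105.2 and 126.0 with A2 and 88.7, 94.0 and 107.4 with A3, against 299.5, 318.4 and 323.2 with A1 and 303.3, 370.3 and 417.6 in U. The 6 inhibitor arrays lay below all 6 others. Fitted values were -1.42 ± 0.14 with A2 on the log2 scale (adjusted p = 9.07e-07) and -1.60 ± 0.14 with A3 (adjusted p = 2.32e-07). Under the hairpin it read 138.3, 144.6 and 164.3 with A5 against 176.7, 181.9 and 187.4 with A5M and 144.7, 148.0 and 161.3 without doxycycline in TS at 84 h. The A5 arrays overlapped with the uninduced arrays and lay below all A5M arrays. The log2 fold changes of -0.02 (95% interval -0.25 to 0.21) at 84 h, -0.11 (-0.34 to 0.12) at 72 h and -0.24 (-0.47 to -0.01, adjusted p = 0.13) in Su-DHL1 were not called. Against A5M the value was -0.27 (-0.50 to -0.04, adjusted p = 0.0551), and it was called under 4 alternatives, among them quantile normalization (-0.36, adjusted p = 0.0115). The dim second probe set 214793_at read 4.9, 14.7 and 32.4 with A3, all below the 40th percentile of their arrays, and 18.9, 32.3 and 44.4 with A2, against 42.9, 44.3 and 49.5 with A1. It was at least 1.25-fold lower with A3, where the fitted value was called (adjusted p = 0.0171), and was not called with A2 (-0.44 ± 0.33, adjusted p = 0.348). The A3 call was lost without the first A1 array (-1.07, adjusted p = 0.0545) or the first A3 array (-0.76, adjusted p = 0.0932).

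**Figure D2:**
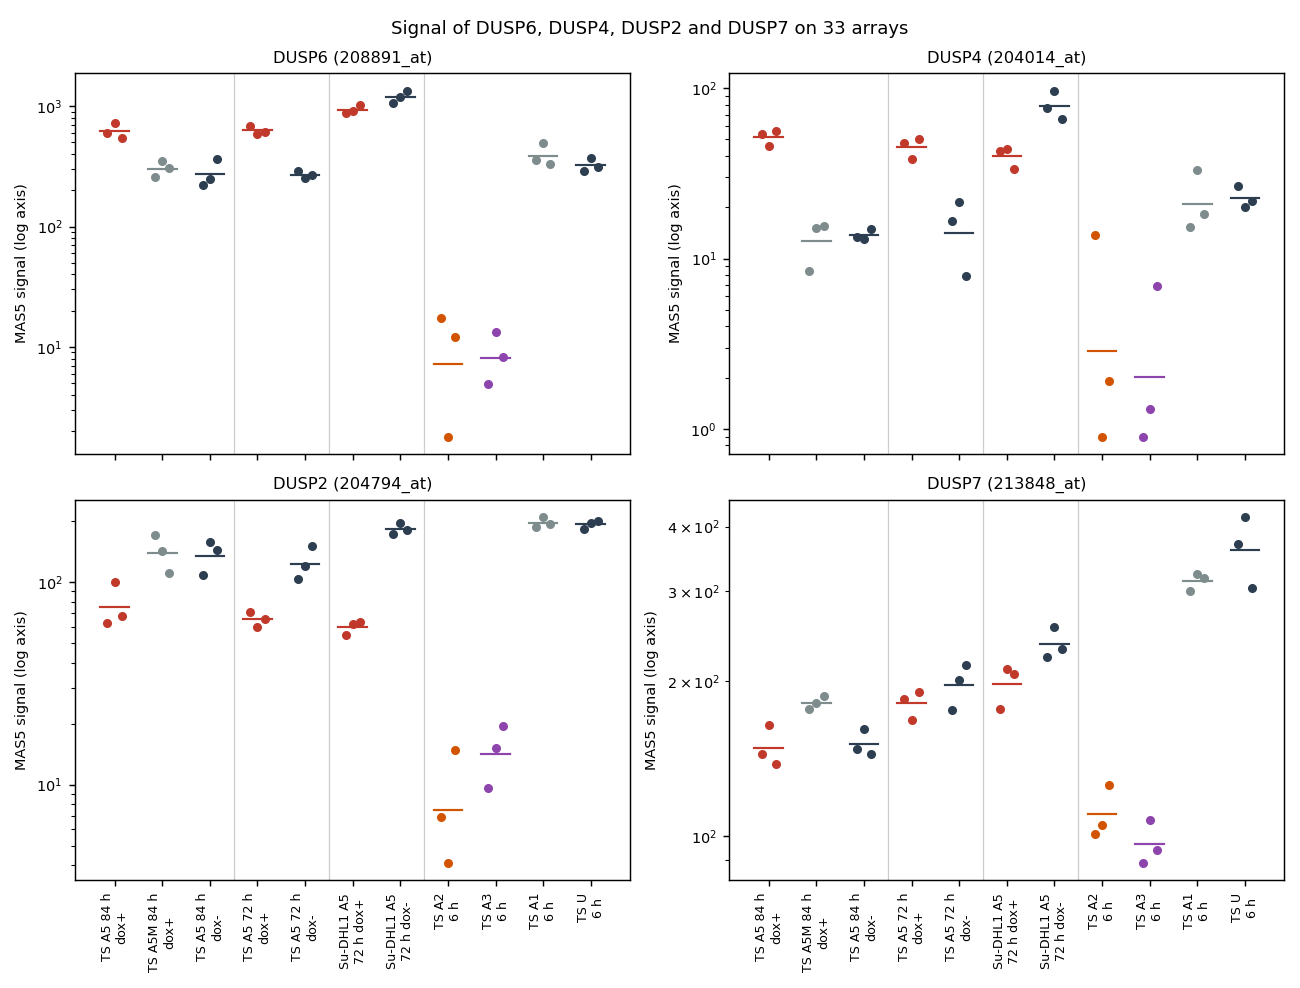
MAS5 signal (log axis) of DUSP6, DUSP4, DUSP2 and DUSP7 on each of 33 arrays, in 11 groups of 3, where a horizontal line marks the geometric mean of a group. DUSP6 stands between 1.8 and 17.4 units with A2 and A3 and at 290.1 or more with A1 and U, and DUSP2 is lower with A5 than without doxycycline in all 3 sets.

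DUSP2, an inducible nuclear phosphatase first known from activated lymphocytes, was lower in every setting where ALK was silenced or inhibited. It read 62.8, 68.3 and 100.3 with A5 against 111.3, 142.5 and 169.8 with A5M and 107.9, 144.0 and 158.3 without doxycycline in TS at 84 h. At 72 h it read 59.7, 66.0 and 70.9 with A5 against 103.0, 120.2 and 149.8 without in TS, and 55.0, 61.8 and 63.3 against 173.2, 181.6 and 195.3 in Su-DHL1. No induced array overlapped with an uninduced array of its set. The log2 fold change was -0.75 ± 0.18 (adjusted p = 0.00156), -0.79 ± 0.18 against A5M (adjusted p = 8.58e-04), -0.81 ± 0.18 at 72 h (adjusted p = 0.00103) and -1.45 ± 0.18 in Su-DHL1 (adjusted p = 1.95e-06). The response in Su-DHL1 minus that in TS was -0.64 ± 0.25 (adjusted p = 0.229) and was not called.

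A measure of RNA quality moved with the hairpin in TS. The ratio of signal at the 3′ end of ACTB to that at its 5′ end averaged 1.27 ± 0.02 with A5, 1.52 ± 0.07 with A5M and 1.54 ± 0.05 without doxycycline at 84 h, and 1.32 ± 0.05 with A5 against 1.59 ± 0.11 without at 72 h (SD, n = 3 each). In Su-DHL1 it averaged 1.36 ± 0.08 with A5 and 1.39 ± 0.04 without, and in the inhibitor arrays 1.04 ± 0.03 with A2, 1.06 ± 0.15 with A3, 1.33 ± 0.07 with A1 and 1.18 ± 0.12 in U. With its logarithm as a covariate, DUSP2 in TS was -0.43 (adjusted p = 0.377) at 84 h, -0.49 against A5M (adjusted p = 0.25) and -0.49 (adjusted p = 0.336) at 72 h, and no longer called, while its calls in Su-DHL1 and with A2 and A3 were kept. For DUSP6 by 208891_at the values were 0.98 (adjusted p = 0.00969) at 84 h and 1.03 (adjusted p = 0.00887) at 72 h, while 208893_s_at was no longer called at 84 h (adjusted p = 0.156) or against A5M (adjusted p = 0.165).

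With the inhibitors DUSP2 read 4.1, 6.9 and 14.8 with A2 and 9.6, 15.2 and 19.4 with A3, against 186.1, 192.9 and 209.5 with A1 and 182.7, 194.5 and 201.0 in U. The A2 and A3 arrays were below the 40th percentile of their own array and the A1 and U arrays above it. DUSP2 was at least 5.36-fold lower with A2 and at least 5.37-fold lower with A3, with fitted log2 fold changes of -3.44 ± 0.22 (adjusted p = 5.46e-09) and -3.03 ± 0.22 (adjusted p = 2.29e-08).

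DUSP4, a nuclear phosphatase of ERK, JNK and p38, split by cell line under the hairpin. Probe set 204014_at read 45.7, 53.7 and 56.1 with A5 against 8.5, 15.2 and 15.6 with A5M and 13, 13.4 and 15 without doxycycline in TS at 84 h, and 38.4, 47.8 and 50.3 against 7.9, 16.7 and 21.4 at 72 h. In Su-DHL1 it read 33.7, 42.9 and 43.7 with A5 against 66.0, 76.6 and 96.9 without. The induced arrays lay above the uninduced ones in TS and below them in Su-DHL1. The log2 fold change was 1.34 ± 0.24 (adjusted p = 8.36e-05), 1.39 ± 0.24 against A5M (adjusted p = 4.46e-05), 1.13 ± 0.24 at 72 h (adjusted p = 6.87e-04) and -0.82 ± 0.24 in Su-DHL1 (adjusted p = 0.0149). The TS control levels are under the 40th percentile of their arrays, which makes the rise at least 1.32-fold at 84 h, at least 1.36-fold against A5M and at least 1.28-fold at 72 h.

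The Su-DHL1 minus TS difference for DUSP4 was -1.95 ± 0.34 (adjusted p = 0.00136) by 204014_at and -1.98 ± 0.43 (adjusted p = 0.00955) by 204015_s_at, and it was called without any single array that enters it. Since the uninduced TS arrays of both, and of 208893_s_at, lay below that percentile, the sizes of these differences depend on the added 11 units. The decrease within Su-DHL1 was less firm: by 204014_at it was lost without the third induced array (-0.73, adjusted p = 0.0659) or the second uninduced array (-0.69, adjusted p = 0.0899). By 204015_s_at (-0.87 ± 0.30, adjusted p = 0.0431) it was lost without the second (-0.97, adjusted p = 0.0583) or the third (-0.64, adjusted p = 0.197) induced array or the first (-0.83, adjusted p = 0.117), second (-0.86, adjusted p = 0.105) or the third (-0.92, adjusted p = 0.0776) uninduced array. In TS, 204015_s_at was called at 72 h (adjusted p = 0.00669), where its uninduced arrays all lay below the 40th percentile and the rise was at least 1.04-fold, and not at 84 h (0.34 ± 0.30, adjusted p = 0.423). With the ACTB ratio as a covariate, 204014_at was 1.01 (adjusted p = 0.0946) at 84 h, 1.09 against A5M (adjusted p = 0.0501), 0.81 (adjusted p = 0.227) at 72 h and -1.67 (adjusted p = 0.0796) for the difference between lines. By 204015_s_at it was 1.29 (adjusted p = 0.121) at 72 h in TS, -0.85 (adjusted p = 0.0609) in Su-DHL1 and -2.14 (adjusted p = 0.0866) for the difference. In the inhibitor arrays 204014_at read 0.9, 1.9 and 13.8 with A2 and 0.9, 1.3 and 6.9 with A3, against 15.3, 18.3 and 33.2 with A1 and 20.2, 21.9 and 26.5 in U, all below the 40th percentile of their arrays. It was not tested there and no fold is given.

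DUSP5, a nuclear phosphatase specific for ERK, was higher with the hairpin and lower with the inhibitors. It read 136.9, 141.5 and 146.0 with A5 against 68.8, 80.9 and 82.2 with A5M and 78.2, 89.5 and 109.6 without doxycycline in TS at 84 h. It read 110.3, 120.3 and 140.2 with A5 against 59.3, 80.8 and 90.4 without in TS at 72 h, and 82.7, 103.5 and 111.8 against 47.9, 59.5 and 64.5 in Su-DHL1. All induced arrays lay above the controls of their set. The log2 fold changes were 0.57 ± 0.16 (adjusted p = 0.0078), 0.79 ± 0.16 against A5M (adjusted p = 3.97e-04), 0.63 ± 0.16 at 72 h (adjusted p = 0.00478) and 0.69 ± 0.16 in Su-DHL1 (adjusted p = 0.00346). With the ACTB ratio as a covariate the TS values were 0.52 (adjusted p = 0.25) at 84 h, 0.74 against A5M (adjusted p = 0.0579) and 0.57 (adjusted p = 0.223) at 72 h.

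Under the inhibitors DUSP5 read 35.1, 61.6 and 70.9 with A2 and 60.2, 63.5 and 79.1 with A3, against 101.3, 102.0 and 121.0 with A1 and 91.9, 116.5 and 159.4 in U. No A2 or A3 array overlapped with an A1 or U array. It was called with A2 (-0.87 ± 0.22, adjusted p = 0.00629) and, narrowly, with A3 (-0.60 ± 0.22, adjusted p = 0.0487). The A3 call was lost without the first, the second or the third A1 array (adjusted p = 0.0777, 0.132 and 0.0808) and without the first or second A3 array (adjusted p = 0.137 and 0.114). Neither was called once the ACTB ratio was a covariate, at -0.86 with A2 (adjusted p = 0.117) and -0.59 with A3 (adjusted p = 0.278).

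DUSP1, the classical immediate early phosphatase that acts mostly on p38 and JNK as well as ERK, was not called under the hairpin in either line. It read 380.3, 488.7 and 491.5 with A5 against 386.3, 398.3 and 408.8 without doxycycline in TS at 84 h, with overlap between the groups. Against A5M the log2 fold change was 0.30 (adjusted p = 0.0875). It was called without the third A5 array (0.42, adjusted p = 0.0286) or the first A5M array (0.40, adjusted p = 0.0402). The log2 fold changes against uninduced cells were 0.18 (95% interval -0.11 to 0.46) at 84 h, -0.03 (-0.32 to 0.26) at 72 h and -0.31 (-0.60 to -0.03, adjusted p = 0.116) in Su-DHL1. The last was called without the second uninduced Su-DHL1 array (-0.48, adjusted p = 0.0169).

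The inhibitors raised DUSP1. It read 673.9, 705.5 and 738.3 with A2 and 633.4, 676.2 and 986.3 with A3, against 368.9, 399.6 and 415.8 with A1 and 335.6, 396.7 and 481.1 in U, and all 6 inhibitor arrays were above the other 6. On the log2 scale it was 0.82 ± 0.16 higher with A2 (adjusted p = 6.55e-04) and 0.91 ± 0.16 higher with A3 (adjusted p = 2.8e-04). With the ACTB ratio as a covariate it was 0.67 (adjusted p = 0.0729) with A2 and 0.76 (adjusted p = 0.0381) with A3. The second DUSP1 probe set, 201044_x_at, read between 2.7 and 8.8 on all arrays and was not tested in any fit.

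DUSP10, which prefers JNK and p38, was higher under both treatments. Probe set 221563_at read 112.6, 114.8 and 138.9 with A5 against 51.4, 56.6 and 97.0 with A5M and 54.3, 64.5 and 64.8 without doxycycline in TS at 84 h. It read 90.9, 124.7 and 137.7 with A5 against 50.9, 52.6 and 66.1 without at 72 h. The A5 arrays lay above all controls, with log2 fold changes of 0.88 ± 0.21 (adjusted p = 0.00146), 0.79 ± 0.21 against A5M (adjusted p = 0.00359) and 0.92 ± 0.21 at 72 h (adjusted p = 0.00126). The other probe set, 215501_s_at, was not called in TS, at 0.04 ± 0.18 (adjusted p = 0.897) at 84 h and 0.44 ± 0.18 (adjusted p = 0.0607) at 72 h. In Su-DHL1 it was the reverse, with 0.66 ± 0.18 (adjusted p = 0.00831) by 215501_s_at and 0.54 ± 0.21 (adjusted p = 0.0636) by 221563_at.

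With the inhibitors, 221563_at of DUSP10 read 136.9, 147.1 and 169.8 with A2 and 113.2, 132.5 and 162.4 with A3, against 38.8, 47.6 and 79.1 with A1 and 48.4, 48.7 and 53.1 in U. No inhibitor array overlapped with A1 or U. The log2 fold change was 1.34 ± 0.20 with A2 (adjusted p = 8.88e-05) and 1.19 ± 0.20 with A3 (adjusted p = 2.82e-04). By 215501_s_at it was 1.53 ± 0.25 with A2 (adjusted p = 2.11e-04) and 0.97 ± 0.25 with A3 (adjusted p = 0.00772), and the A3 value was not called with the ACTB ratio as a covariate (0.85, adjusted p = 0.162).

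**Figure D3:**
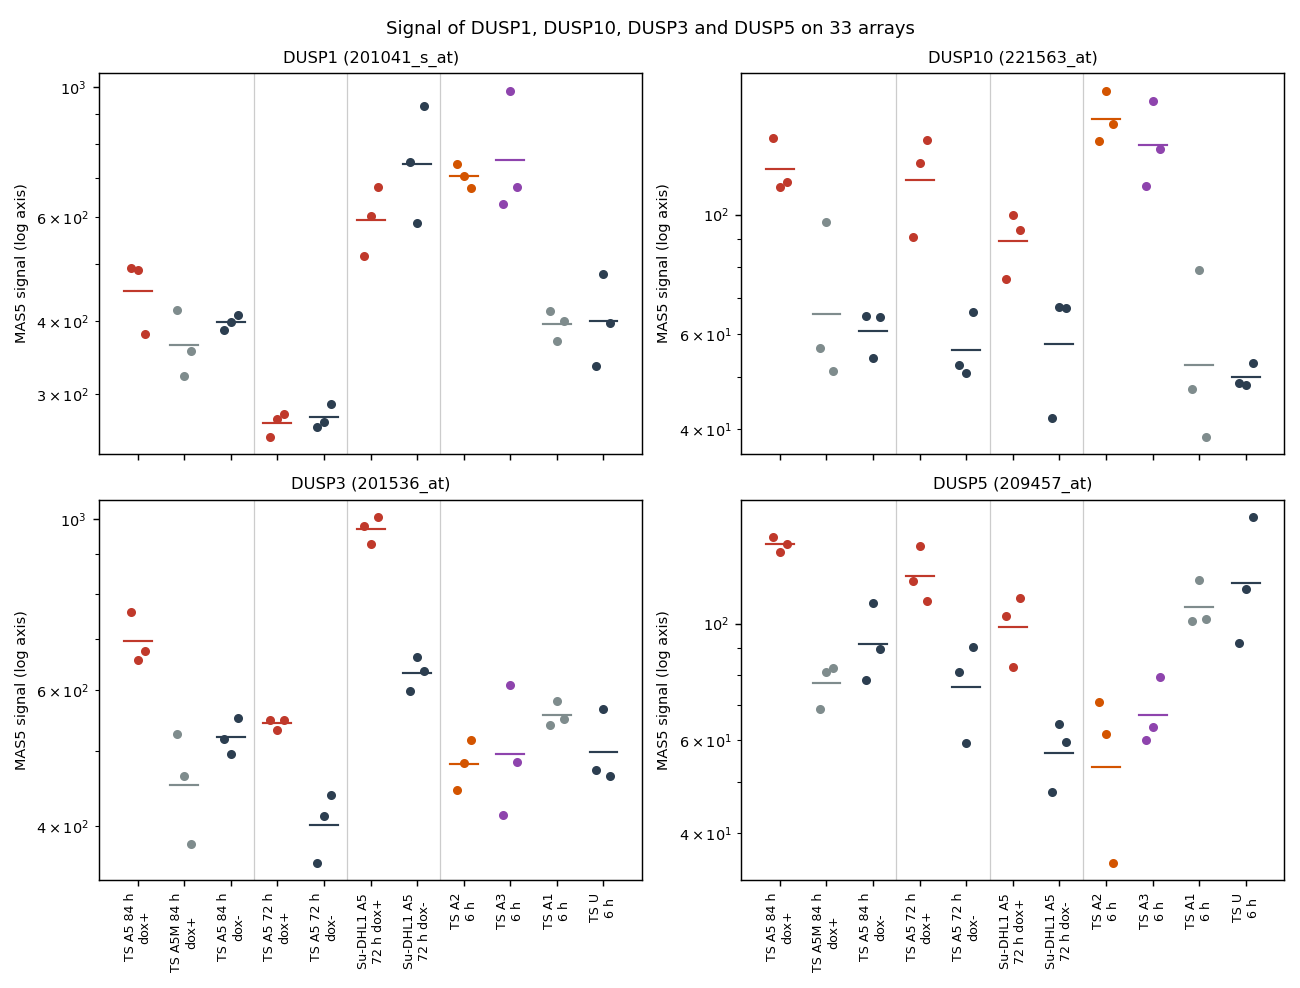
MAS5 signal (log axis) of DUSP1, DUSP10, DUSP3 and DUSP5 on each of 33 arrays, in 11 groups of 3, where a horizontal line marks the geometric mean of a group. DUSP1 and DUSP10 are higher with A2 and A3 than with A1 and U, and DUSP3 is higher with A5 than without doxycycline in all 3 sets.

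DUSP3, a small atypical phosphatase also called VHR, was higher with the hairpin by its brightest probe set. Probe set 201536_at read 655.7, 675.2 and 757.1 with A5 against 378.4, 463.8 and 525.8 with A5M and 495.1, 519.2 and 551.7 without doxycycline in TS at 84 h, 533.1, 548.0 and 549.4 against 357.9, 411.9 and 438.6 at 72 h, and 929.9, 979.9 and 1006.9 against 597.9, 636.1 and 661.8 in Su-DHL1. The induced arrays were above the controls in each set. The log2 fold change was 0.41 ± 0.10 (adjusted p = 0.00326), 0.61 ± 0.10 against A5M (adjusted p = 4.65e-05), 0.43 ± 0.10 at 72 h (adjusted p = 0.00271) and 0.61 ± 0.10 in Su-DHL1 (adjusted p = 1.38e-04). The 2 other probe sets were called at 84 h (0.95 and 0.47) and not at 72 h in either line, and the weaker of these calls, 201538_s_at, was lost without the first (0.42, adjusted p = 0.12) or second (0.41, adjusted p = 0.136) A5 array or the first uninduced array (0.24, adjusted p = 0.31). With that ratio in the model neither 84 h value was called any longer, 201537_s_at at 1.21 (adjusted p = 0.0579) and 201538_s_at at 0.60 (adjusted p = 0.213), while 201536_at kept its call (0.60, adjusted p = 0.0198). The inhibitors left DUSP3 uncalled, at -0.21 (95% interval -0.49 to 0.08) with A2 and -0.16 (-0.45 to 0.12) with A3.

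DUSP14, a small atypical phosphatase studied in T cell signalling, moved little. It read 336.2, 368.8 and 375.4 with A5 against 391.4, 410.3 and 440.2 with A5M and 273.1, 307.0 and 351.8 without doxycycline in TS at 84 h, so that the A5M group was highest. Its log2 fold changes with the hairpin were 0.21 (adjusted p = 0.102), -0.20 against A5M (adjusted p = 0.128), 0.24 at 72 h (adjusted p = 0.0734) and -0.03 in Su-DHL1 (adjusted p = 0.893). With A2 it was -0.48 ± 0.18 (adjusted p = 0.0505) and with A3 -0.39 ± 0.18 (adjusted p = 0.11). The A2 value was called without the first (-0.56, adjusted p = 0.0498) or the third (-0.57, adjusted p = 0.0446) A1 array. It was also called under other alternatives, among them the 60th percentile filter (adjusted p = 0.0391) and quantile normalization (adjusted p = 0.0471). With all 33 arrays in 1 fit both A2 (adjusted p = 0.0087) and A3 (adjusted p = 0.0325) were called. With the ACTB ratio as a covariate A2 was not called (-0.36, adjusted p = 0.451).

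Before induction, the lines differed in these genes at 72 h. In uninduced Su-DHL1 against uninduced TS cells, 9 of 15 DUSP probe sets were higher and 0 lower. Of all probe sets tested, 19% were called, 9.55% higher and 9.44% lower. The DUSP4 probe sets 204014_at and 204015_s_at and 208893_s_at of DUSP6 lay below the 40th percentile on all uninduced TS arrays at 72 h. Without these 3, 6 of 12 were higher and 0 lower. DUSP6 was 2.11 ± 0.15 higher on the log2 scale (208891_at, adjusted p = 5.49e-10), DUSP4 1.81 ± 0.24 (204014_at, adjusted p = 6.47e-06, at least 2.23-fold), DUSP1 1.40 ± 0.14 (adjusted p = 1.01e-07) and DUSP3 0.64 ± 0.10 (201536_at, adjusted p = 9e-05). DUSP1 read 586.0, 746.1 and 929.0 in uninduced Su-DHL1 cells against 264.2, 269.3 and 288.9 in uninduced TS cells. DUSP2 was called (0.54 ± 0.18, adjusted p = 0.037), but the call was lost when the first or second TS array (adjusted p = 0.175 and 0.0955) or the first, the second or the third Su-DHL1 array (adjusted p = 0.0607, 0.12 and 0.0797) was left out. Each line is a different cell line with its own history, so that the difference cannot be tied to any one property of them.

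No DUSP probe set was called between A3 and A2 at the same dose and time. Between them, 0 of 14 DUSP probe sets were called by limma, where 0.0412% of all probe sets were, and 1 had an unadjusted p under 0.05. That was 215501_s_at of DUSP10, with A3 minus A2 at -0.56 (95% interval -1.1 to -0.02, adjusted p = 0.502). The interval of the difference was -0.61 to 0.49 for DUSP6 by 208891_at, -0.05 to 0.87 for DUSP2, -0.47 to 0.12 for DUSP7 by 213848_at and -0.24 to 0.42 for DUSP1, so that differences up to those sizes could have gone undetected on these arrays. Between A1 and U, 0 of 14 were called and 0 had an unadjusted p under 0.05, where 0.0412% of all probe sets were called. The interval of A1 minus U was -0.29 to 0.81 for DUSP6 and -0.44 to 0.48 for DUSP2.

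The 2 ways of lowering ALK activity were set against each other within TS. The mean response to A2 and A3 minus the response to the hairpin at 72 h was called for 13 of 16 DUSP probe sets, 2 higher and 11 lower, where 22.1% of the 15899 probe sets tested were called, 10.8% higher and 11.3% lower. DUSP2, every probe set of DUSP6 and of DUSP4, and 214793_at of DUSP7 are among the 11. Each lay below the 40th percentile on all arrays of at least 1 group compared. The counts therefore do not show that more of the family was lower than higher. DUSP6 had the largest value at -5.51 ± 0.27 (208891_at, adjusted p = 2.23e-16), followed by DUSP2 at -2.42 ± 0.25, DUSP4 at -2.27 ± 0.36, DUSP7 at -1.40 ± 0.16 and DUSP5 at -1.36 ± 0.26. DUSP14 (-0.67 ± 0.19) and DUSP3 (201536_at, -0.61 ± 0.15) were also lower, DUSP1 was higher at 0.90 ± 0.20 (adjusted p = 9.2e-04), and DUSP10 was higher by 1 of its probe sets (215501_s_at, 0.80 ± 0.29, adjusted p = 0.0462). That DUSP10 call was lost in 8 of the 15 fits that leave out 1 array, with adjusted p between 0.0811 and 0.162 in those. The call of 214793_at of DUSP7 was no firmer. It was lost without the first induced TS array at 72 h (adjusted p = 0.124) and without several other single arrays. It was also lost with a pseudocount of 1 (adjusted p = 0.0552) and with no filter (adjusted p = 0.0532). For DUSP6, DUSP2 and DUSP4, whose A2 and A3 signals lay below the 40th percentile, these fitted values depend on the added 11 units. DUSP4 lay below it on the A1 and U arrays as well and was tested here only through its hairpin arrays. Its value therefore gives no measure of the inhibitor response. The hairpin ran for 72 h and the compounds for 6 h, in separate experiments with their own controls. Kind of treatment, its length and the experiment therefore cannot be told apart. The controls themselves differed. DUSP7 by 213848_at averaged 363.7 in U and 197.4 in uninduced TS cells at 72 h, and ALK by 208212_s_at 3471 and 1823.

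**Figure D4:**
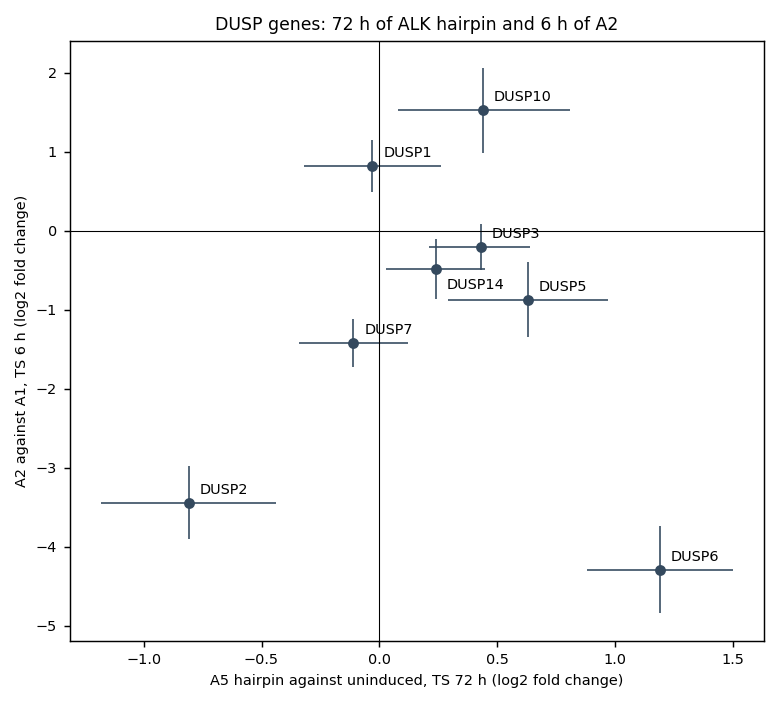
Log2 fold change of signal + 11 with A2 against A1 at 6 h (y axis) and with A5 against no doxycycline in TS at 72 h (x axis), with 95% intervals, for the main probe set of 8 DUSP genes. DUSP6 is at 1.19 on the x axis and -4.29 on the y axis, DUSP2 is negative on both, and DUSP5 is positive on the x axis and negative on the y axis.

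Over all 11 groups, DUSP6 (208891_at) averaged 1202 ± 144 in uninduced Su-DHL1 and 937.4 ± 82.9 in induced Su-DHL1, then 629.3 ± 52.4 in TS with A5 at 72 h and 620.9 ± 91.7 at 84 h, which overlapped. The next 5 groups, A1 at 394.4 ± 91.4, U at 323.4 ± 41.0, A5M at 305.5 ± 48.9 and the uninduced TS groups at 279.2 ± 76.5 and 268.9 ± 17.0, each overlapped with its neighbour in this order, and A2 at 10.47 ± 7.94 and A3 at 8.867 ± 4.28 lay far below (SD, n = 3 each). DUSP2 was ordered otherwise: A1 at 196.2, U at 192.7 and uninduced Su-DHL1 at 183.4 were highest, A5M and the uninduced TS groups lay between 124.3 and 141.2, the 3 induced A5 groups between 60.03 and 77.13, and A3 and A2 were at 14.73 and 8.6. For DUSP5 and for both probe sets of DUSP10 every group overlapped with its neighbour in the order, and for DUSP1 8 of 10 neighbouring pairs did. The hairpin and the 6 h arrays are separate experiments, so that an order across them cannot be tied to treatment alone.

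The members' patterns over the 11 group means of log2 signal were also set side by side. This is a description of means that share arrays, lines and control groups and come from separate experiments. DUSP4 and DUSP6 had a Pearson r of 0.89, DUSP2 and DUSP7 of 0.83, and DUSP2 and DUSP10 of -0.95. These are the main probe sets, which for DUSP10 is 215501_s_at. DUSP4 had all 3 arrays at or above the 40th percentile in only 3 of the 11 groups. The A2 and A3 signals of DUSP2, DUSP4 and DUSP6 lay below that percentile, so that these r depend in part on signals at the bottom of the arrays. Among 12487 probe sets that passed the filter in both fits, the genes most like DUSP6 were PLAUR (r = 0.987), SLC22A4 (0.978) and G0S2 (0.972). Those most like DUSP2 were MC1R (0.98), MYC (0.974) and TFB2M (0.968), and those most like DUSP7 were SOCS1 (0.97), TMEM185B (0.969) and NOP2 (0.967). For DUSP1 they were GNA11 (0.954), ARPC1A (0.895) and FYN (0.894), for DUSP10 INTS6 (0.945), VAMP1 (0.938) and MICA (0.935), and for DUSP3 CNN2 (0.961), RIMS2 (0.934) and MX2 (0.928). For DUSP5 they were DDX60 (0.928), UGCG (0.924) and IL17RA (0.917), and for DUSP14 SCO2 (0.912), USPL1 (0.894) and NMD3 (0.894). The 8 genes searched exclude DUSP4, which did not pass in the inhibitor arrays.

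Most of the other tested transcripts that ERK signalling induces fell with the inhibitors, and under the hairpin they moved in both directions. Of 21 such genes, 14 were tested in the inhibitor arrays, and 12 fell and 1 rose both with A2, where 13.3% of all probe sets were lower and 18.3% higher, and with A3, where 13.4% were lower and 17.8% higher. The median log2 fold change was -2.31 with A2 and -2.06 with A3, where that over all probe sets was 0.03 and 0.04. Of the 12 that fell, 3 with A2 and 4 with A3 lay below the 40th percentile on all arrays of that compound. ETV1 and PHLDA1 did so with both compounds and passed the filter only through A1 and U arrays. The counts and medians are therefore in part set by the filter. MYC, a growth-promoting transcription factor, had -6.40 ± 0.23 with A2 and was at least 70.9-fold lower with A3, and the immediate early factor EGR1 was at least 8.11-fold lower with A2 and had -2.72 with A3. JUN was the gene that rose, by 1.00 and 1.24.

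Under the hairpin 16 of these genes were tested. In TS at 84 h 5 rose and 4 fell, where 20.6% of all probe sets were higher and 17% lower, and against A5M 6 rose and 4 fell, where 21.9% were higher and 17.6% lower. For A5M against uninduced A5 cells 0 rose and 2 fell, where 2.46% of all probe sets were higher and 3.04% lower. In TS at 72 h 5 rose and 2 fell (17.4% and 13.5% of all probe sets), and in Su-DHL1 6 rose and 2 fell (12.5% and 9.19%). The median log2 fold change was -0.13 at 84 h, -0.04 against A5M, 0.13 at 72 h and 0.09 in Su-DHL1, where that over all probe sets was 0.06, 0.07, 0.07 and 0.08. Against uninduced cells, PHLDA1 rose by 2.67 at 84 h, 3.17 at 72 h and 2.65 in Su-DHL1, and the ETS factor ETV1 by 1.74, 2.13 and 1.00. With A2 they were at least 5.95-fold and at least 5.83-fold lower. SPRY4, an inhibitor of the pathway, rose by 1.40, 1.92 and 0.71 with the hairpin and fell with A2 (-1.78), and MYC fell in all 3 hairpin sets (-2, -1.45 and -1.15).

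Of 17 RAS-ERK genes tested, 5 rose and 2 fell in TS at 84 h, 7 rose and 2 fell against A5M, 9 rose and 2 fell at 72 h, and 4 rose and 2 fell in Su-DHL1. With A2 6 rose and 3 fell, and with A3 7 rose and 2 fell. The shares of all probe sets in these comparisons are those given above, between 12.5% and 21.9% higher and between 9.19% and 17.6% lower. RPS6KA1, an ERK-activated kinase, was at 1.11 ± 0.11 (TS 84 h), 1.13 ± 0.11 (TS 72 h), 0.39 ± 0.11 (Su-DHL1) and -0.36 ± 0.12 (A2), all called. MAP2K1, the kinase that activates ERK, was at -0.59, -0.67 and -0.71 in the 3 hairpin sets, and was not called against A5M (-0.31, adjusted p = 0.109). The scaffold KSR1 was at -1.11 ± 0.30 with A2 and at least 2.04-fold lower with A3.

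Of 16 JNK, p38 and ERK5 genes tested, 4 rose and 0 fell by limma in TS at 84 h, 7 rose and 0 fell at 72 h and 3 rose and 0 fell in Su-DHL1, where 20.6%, 17.4% and 12.5% of all probe sets were higher. Against A5M 5 rose and 2 fell, where 21.9% of all probe sets were higher and 17.6% lower. MAP3K5 (ASK1) was at 0.83, 0.86 and 0.73 in the 3 hairpin sets, at 0.40 against A5M, and at 0.43 with A5M against the uninduced cells, all called. With A2 2 rose and 2 fell, where 18.3% of all probe sets were higher and 13.3% lower. With A3 4 rose and 2 fell, where 17.8% were higher and 13.4% lower. MAPKAPK2 was at -0.95 with A2 and -1.16 with A3.

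Of 18 other phosphatases of the same kind, 9 are on the array and 7 were tested in the hairpin fit. In TS at 84 h DUSP22 (0.72) and PTPN7 (0.63) rose, and against A5M DUSP22 (0.77), PTPN7 (0.60) and DUSP11 (0.44) rose and DUSP12 fell (-0.55), where 37.6% and 39.6% of all probe sets were called. DUSP12 was the 1 gene called in TS at 72 h (-0.38), where 30.9% of all probe sets were called, and PTPRR in Su-DHL1 (at least 1.13-fold higher), where 21.6% were. Of 6 tested with the inhibitors, DUSP12 fell by 0.47 with A2 and by 0.32 with A3, and PTPN7 by 0.40 and 0.58, where 31.6% and 31.2% of all probe sets were called.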

How the data were processed

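RNA of 2 ALK-positive lymphoma lines was measured on 33 HG-U133A arrays. The deposited values are MAS5 signal intensities per probe set on a linear scale, per the submitters' processing notes and the file's values, with no detection calls in the table used here. They were taken as deposited, without further normalization. Gene names are those of GEO's platform annotation: of 22215 probe sets left after 68 control probe sets, 19065 have 1 symbol, 1043 have several and 2107 have none.

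Signals were analysed as log2(signal + 11), where 11 is the 20th percentile of all values, 10.8, rounded. A fold change on this scale understates the change of low signals. Probe sets at or above the 40th percentile of their own array on at least 3 arrays were tested by limma's moderated test (version 3.58.1, R 4.3.3, eBayes with trend), two-sided, with 1 mean per group. The 21 hairpin arrays (7 groups) and the 12 inhibitor arrays (4 groups) were fitted apart, and all 33 together for the inhibitor response minus the hairpin response. P-values were adjusted by Benjamini-Hochberg over all probe sets tested in each of 13 comparisons, and called below 0.05. Of the 17 DUSP probe sets, 15 passed in the hairpin fit and 14 in the inhibitor fit. The code was tested on simulated data. Figures used matplotlib 3.10.9.

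All probe sets of the members are named whatever their result, the main one being the brightest over 33 arrays. From each list of other genes, up to 4 called genes of largest change are named per comparison, some with their values in the other comparisons, and JUN, SPRY4 and RPS6KA1 were in part chosen after their values were seen. A fold against a group whose arrays all lie under the 40th percentile is given as a bound against that percentile, in some places beside the fitted value. The members and lists were chosen with earlier results of these data known. Same-numbered arrays of different groups did not deviate together (median correlation 0.00218 in the hairpin and -0.00296 in the inhibitor arrays), so no block was used. Alternatives were other pseudocounts, filters, quantile normalization, 1 probe set per gene, no trend, a replicate block, the ACTB ratio as a covariate, other sets of arrays in the fit, U in place of A1 and leaving out each array.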

Additional observations from a re-analysis of the deposited data

Results flagged for a closer look

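For 2 genes the hairpin response differed between the lines by a test of the difference itself (limma, adjusted over 15345 probe sets). The response in Su-DHL1 minus that in TS at 72 h was -1.95 (adjusted p = 0.00136) for DUSP4 by 204014_at and -1.98 (adjusted p = 0.00955) by 204015_s_at. For DUSP6 it was -1.54 (adjusted p = 1.06e-04) by 208891_at, -1.23 (adjusted p = 3.35e-05) by 208892_s_at and -2.37 (adjusted p = 0.00224) by 208893_s_at. All 3 induced Su-DHL1 arrays lay below all 3 uninduced ones for 204014_at, 204015_s_at, 208891_at and 208892_s_at, and at 72 h all 3 induced TS arrays lay above all 3 uninduced ones for the 5 probe sets. The 2 lines also differed before induction in both genes, with DUSP6 at 2.11 and DUSP4 at 1.81 in uninduced Su-DHL1 minus uninduced TS on the log2 scale. With the ACTB 3′ to 5′ ratio as a covariate the difference was -1.67 (adjusted p = 0.0796) and -2.14 (adjusted p = 0.0866) for DUSP4, and -1.40 (adjusted p = 0.0157), -1.22 (adjusted p = 0.00449) and -2.38 (adjusted p = 0.0535) for DUSP6.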

How the results depend on the processing

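The 13 counts of called DUSP probe sets stayed within 1.5 times their value under pseudocounts of 1 and 32, no filter, quantile normalization, no trend and the replicate block, which gave 13 of 13 such counts each. With 1 probe set per gene, fewer probe sets were tested, and the counts were 5 (A5 against uninduced, TS 84 h), 5 (against A5M), 5 (TS 72 h), 2 (Su-DHL1 minus TS), 5 (uninduced Su-DHL1 against TS) and 6 (A3 against A1). With the 60th percentile filter they were 4 for A5 in Su-DHL1 and 3 for Su-DHL1 minus TS, since fewer members were tested. With the ACTB ratio as a covariate they were 4 (TS 84 h), 5 (against A5M), 5 (TS 72 h) and 2 (Su-DHL1 minus TS), and the cause was not tested. The A5M count was 0 in a fit of only its 2 groups and 0 with all 33 arrays in 1 fit, and the cause was not tested.

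Leaving out 1 array at a time gave 9 to 11 (A5 against uninduced, TS 84 h), 8 to 11 (against A5M), 0 to 1 (A5M against uninduced), 9 to 10 (TS 72 h), 5 to 6 (A5 in Su-DHL1), 5 to 5 (Su-DHL1 minus TS), 0 to 0 (84 h minus 72 h), 7 to 9 (uninduced lines), 9 to 10 (A2), 8 to 10 (A3), 0 to 0 (A3 against A2), 0 to 0 (A1 against U) and 11 to 13 (inhibitor minus hairpin). No probe set changed direction under any alternative run while called. The replicate block, in which numbers did not pair the arrays, ended the calls of DUSP5 with A3 (adjusted p = 0.0645) and DUSP3 201538_s_at at 84 h (adjusted p = 0.0504), and called DUSP14 with A2 (adjusted p = 0.0404) and DUSP3 201537_s_at at 72 h (adjusted p = 0.0381). Signals near the bottom of the array limit DUSP4 in TS and DUSP6 and DUSP2 under A2 and A3, where fold changes grow with a smaller pseudocount.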
